A study of Mus musculus with 12 samples.

Results

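Insulin signalling in the heart is followed here through 10 genes, Insr, Irs1, Irs2, Pik3ca, Pik3r1, Akt1, Akt2, Mtor, Rptor and Foxo1. They were picked by gene symbol from 24061 symbols listed in the count tables, and all 10 were listed and passed the filter on low counts. RNA was sequenced from 12 hearts of male C57BL/6J mice on chow, aged 2 to 4 months, 6 heterozygous for hexokinase II (HKII+/-) and 6 HKII+/+, called wild type here. The enzyme, whose gene is Hk2, traps glucose in the cell as glucose 6-phosphate, and the design sets hearts with a single functional copy of it beside wild type hearts. A note of a potential outlier stands in the submitters' labels of replicate 11 (HKII+/-) and replicate 13 (HKII+/+), called the marked libraries here, so each comparison is given with all 12 libraries and with the 10 unmarked ones (5 per genotype).

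Insulin binds the receptor encoded by Insr, a tyrosine kinase that phosphorylates the adaptors Irs1 and Irs2. These recruit phosphoinositide 3-kinase, whose catalytic subunit p110-alpha (Pik3ca) is held by the regulatory subunit p85-alpha (Pik3r1), and its lipid product brings Akt kinases to the membrane. Akt1 is the more general isoform, while Akt2 is the one most tied to glucose uptake in muscle and fat. Akt relieves the inhibition of mTOR complex 1, built around the kinase Mtor and the scaffold Rptor, and it keeps the transcription factor Foxo1 out of the nucleus. In cardiac muscle this chain controls glucose uptake, growth and protein turnover, and its activity is set mainly by phosphorylation, which RNA levels do not show.

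Total counts ran from 17263209 to 51556592 per library. Ventricular cardiomyocyte markers were present in every library, with a summed level of 69061 to 94557 CPM (each count relative to its library total after TMM adjustment) in the 10 unmarked libraries and 181085 and 203817 CPM in the marked ones. The atrial markers Myl7, Myl4, Sln and Nppa summed to between 315.9 and 6635 CPM in the unmarked HKII+/- libraries, where replicates 19 and 22 were lowest, and to 2231 to 5728 CPM in the unmarked HKII+/+ libraries. Hk2, the targeted gene, averaged 292.3 ± 40.6 CPM (SD, n = 5) in the unmarked HKII+/- libraries, against 509 ± 29.6 CPM (SD, n = 5) in the unmarked HKII+/+ ones. The library labelled HKII+/- replicate 11 held 568.2 CPM of Hk2, above the other HKII+/- libraries and the 471 to 542.5 CPM of the unmarked HKII+/+ libraries. The other marked library, HKII+/+ replicate 13, held more, 652.6 CPM. Low TMM factors raised the CPM of both marked libraries (0.787 and 0.76, against 0.992 to 1.093 in the unmarked ones). Relative to total counts alone, Hk2 in replicate 11 lay below every unmarked HKII+/+ library and above every other HKII+/- library. It had 13360 Hk2 counts of 29924460, and HKII+/+ replicate 17, for example, had 15455 of 28197364. The place of replicate 11 above the wild type range thus depends on the scaling. Whether the label of replicate 11 holds was not tested.

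None of the 10 genes passed the test between the genotypes. With all 12 libraries 0 of 10 had a Benjamini-Hochberg adjusted p below 0.05 in edgeR's quasi-likelihood test, against 0 of 14107 genes tested (0.0%), and 0 of 10 had an unadjusted p below 0.05, against 0.262% of all genes (0.17% higher and 0.0922% lower in HKII+/-). Without the marked libraries 0 of 10 passed, against 1 of 14139 (0.00707%, the gene being Hk2), and 0 of 10 were at unadjusted p below 0.05, against 2.8% of all genes. DESeq2 and limma voom with sample quality weights also called 0 of the 10 in either set of libraries. The CPM of the genotypes overlapped for all 10 genes in both sets, while 0.0213% of all genes with 12 libraries and 0.474% with 10 did not overlap. In both sets 7 of the 10 log2 fold changes were below 0 and 3 above (Irs2 and Foxo1 in both, with Akt2 in the first and Rptor in the second), with a median of -0.04 (12 libraries) and -0.02 (10 libraries), beside -0.001 and -0.005 over all genes tested.

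**Figure D1:**
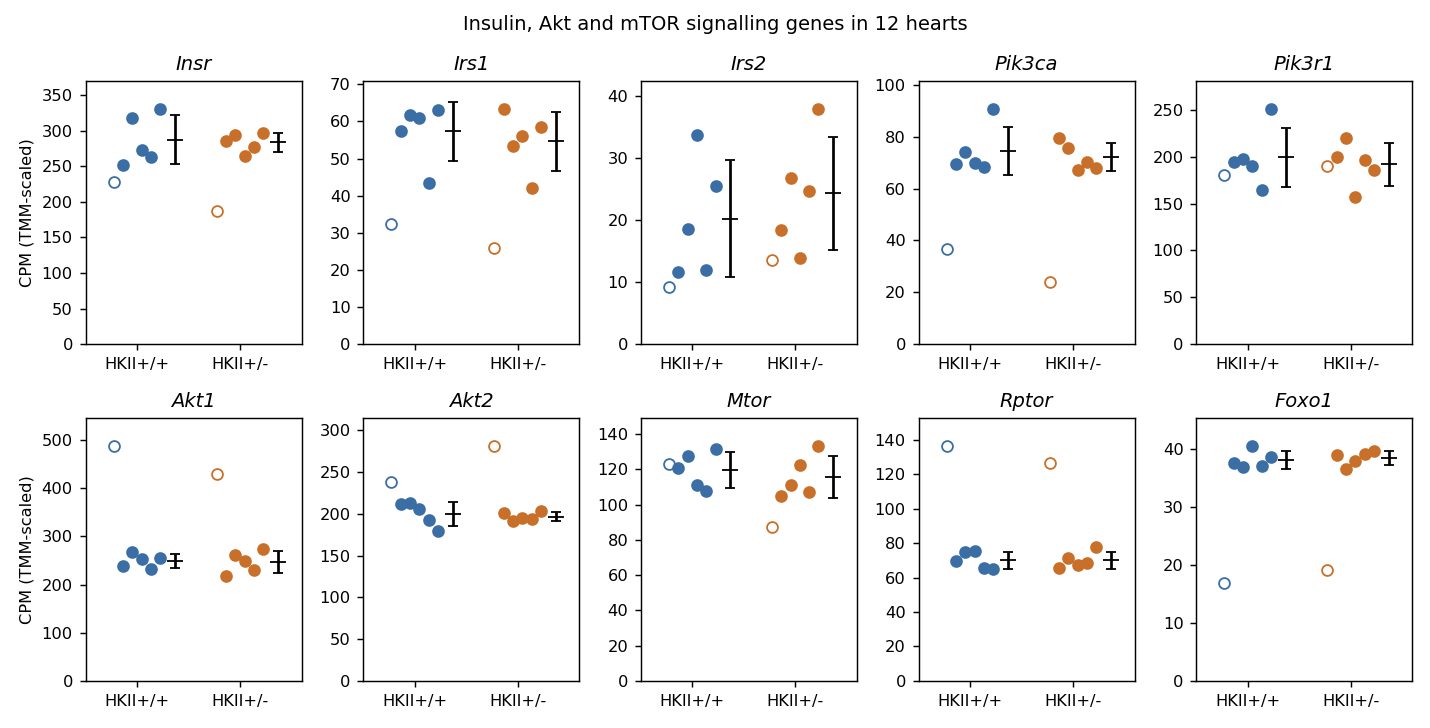
TMM-scaled CPM of each gene (vertical axes, from 0) in HKII+/+ (blue) and HKII+/- (orange) hearts, 1 point per library in replicate order, with the marked libraries as open circles and the mean ± SD of the 5 unmarked libraries of each genotype in black. The filled points of the genotypes overlap in every panel, and the open points lie apart for most genes, high for Akt1 and Rptor and low for Pik3ca, Irs1 and Foxo1.

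The insulin receptor showed a difference between genotypes smaller than the spread between hearts. Insr (ENSMUSG00000005534.10, chromosome 8, 3122061 to 3279617, minus strand of GRCm38) measured 251.8, 317.2, 272.9, 263.4 and 330.1 CPM in HKII+/+ replicates 14, 15, 17, 18 and 21. In HKII+/- replicates 12, 16, 19, 20 and 22 it measured 285.3, 294.3, 264.4, 277.2 and 297.4 CPM. The HKII+/- values all lay inside the HKII+/+ range. Insr had a log2 fold change of -0.02 (SE 0.08), whose 95% interval of -0.19 to 0.16 put the HKII+/- level between 87.7% and 111.5% of the wild type level. The fit of all 12 libraries gave -0.05 (95% interval -0.35 to 0.25). Igf1r, the receptor for insulin-like growth factor 1 that can pair with the insulin receptor, had a log2 fold change of -0.05 (95% interval -0.20 to 0.10) in the 10 libraries. Per kilobase of exon, Insr made up 80.0% to 82.4% of the Insr and Igf1r sum in the unmarked HKII+/+ libraries and 79.7% to 82.4% in the unmarked HKII+/- libraries.

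The adaptors Irs1 and Irs2 differed more from heart to heart than from genotype to genotype. Irs1 (ENSMUSG00000055980.2, chromosome 1, 82233101 to 82291416, minus strand) measured 57.3, 61.7, 60.9, 43.5 and 63.1 CPM in the unmarked HKII+/+ libraries, in the replicate order above. It measured 63.3, 53.3, 56.1, 41.9 and 58.4 CPM in the unmarked HKII+/- libraries. In each genotype 1 library was low, HKII+/+ replicate 18 and HKII+/- replicate 20, and the rest lay between 53.3 and 63.3 CPM. Irs1 had a log2 fold change of -0.07 (95% interval -0.33 to 0.19), and with all 12 libraries -0.09 (95% interval -0.59 to 0.40). Of the exon bases of Irs1, 30.9% lie opposite an annotated gene on the other strand, and the strand setting of the counting is not given in the sources used here, so reads of that gene cannot be told apart from Irs1.

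Irs2 was the most variable of the 10. Irs2 (ENSMUSG00000038894.7, chromosome 8, 10984681 to 11008458, minus strand) encodes the adaptor whose transcription FoxO factors are known to drive when insulin is low. It measured 11.6, 18.6, 33.6, 11.9 and 25.4 CPM in HKII+/+ replicates 14, 15, 17, 18 and 21, and 18.4, 26.7, 13.9, 24.7 and 37.9 CPM in HKII+/- replicates 12, 16, 19, 20 and 22. Each genotype held both low and high hearts, so the groups overlapped over most of their range. Between genotypes the log2 fold change of Irs2 was 0.27 (SE 0.32), and its 95% interval (-0.43 to 0.97) runs from 74.3% to 195.9% of the wild type level. All 12 libraries together gave 0.29 (SE 0.35). In the fit of the 10 unmarked libraries it was 0.05 without HKII+/- replicate 22 and 0.53 without HKII+/+ replicate 17, the highest library of each genotype. The atrial-poor libraries held opposite ends of the HKII+/- range, 13.9 CPM in replicate 19 and 37.9 CPM in replicate 22.

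The coefficient of variation of Irs2 over the 10 unmarked libraries was 40.4%, higher than that of 95.9% of 14139 genes. Counting error alone would give 4.44%, from 216 to 1936 counts per library. The next most variable of the 10 genes, Irs1 and Pik3r1, were at 13.7% and 13.5%, and the median of all genes tested was 9.88%.

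The bases before the RefSeq start of each adaptor gene are shown because Irs1 and Irs2 are close relatives with different spread between hearts. These are the 250 bases before the start, 5′ to 3′ on the minus strand of GRCm38.p6, chr1:82291440-82291689 for Irs1 and chr8:11008930-11009179 for Irs2. Capitals mark matches to an E-box (CACGTG) or to a CRE half-site (TGACG or its reverse complement CGTCA), and in Irs1 the matches overlap.

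Irs1: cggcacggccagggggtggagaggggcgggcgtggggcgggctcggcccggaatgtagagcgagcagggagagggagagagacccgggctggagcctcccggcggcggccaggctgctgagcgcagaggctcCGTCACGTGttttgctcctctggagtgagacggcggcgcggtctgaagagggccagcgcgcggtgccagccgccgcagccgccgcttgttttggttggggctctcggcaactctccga

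Irs2: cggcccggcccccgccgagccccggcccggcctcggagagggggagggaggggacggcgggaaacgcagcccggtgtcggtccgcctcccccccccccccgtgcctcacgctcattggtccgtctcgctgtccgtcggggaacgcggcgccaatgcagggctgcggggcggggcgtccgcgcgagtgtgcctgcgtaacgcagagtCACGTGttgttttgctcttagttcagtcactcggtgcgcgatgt

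The E-box lies 115 to 110 bases before the start in Irs1 and 44 to 39 bases before it in Irs2. An E-box was found in 6.02% of 32851 RefSeq windows of this length and a CRE half-site on either strand in 17.8%. The window of Irs1 held 1 CRE half-site and that of Irs2 held 0. The FoxO motif GTAAACA, or its reverse complement TGTTTAC, was in neither window and in 3.17% of all windows. Of the 14 windows listed for 9 of the 10 genes, 1 of the Akt1 windows held it. The RNA counts do not show which start was used.

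The level of Irs2 across hearts was followed most closely by Fosl2, Errfi1 and Klf2. By a rule on likeness alone, the 3 genes with the highest Pearson correlation of log2 CPM to Irs2 over the 10 unmarked libraries were taken. The values were r = 0.95 for Fosl2 (Spearman 0.92), 0.94 for Errfi1 (Spearman 0.92) and 0.93 for Klf2 (Spearman 0.94). They are the highest of 13030 genes compared, so the size of r describes the choice and is given with no p. Fosl2, a component of the AP-1 transcription factor, ran from 39.6 CPM in HKII+/+ replicate 14 to 91.4 CPM in HKII+/+ replicate 17. Errfi1, a feedback inhibitor of EGF receptor signalling, ran from 17.3 to 36.3 CPM, and Klf2, a transcription factor of the endothelium, from 41.8 to 101 CPM. HKII+/+ replicates 14 and 18 and HKII+/- replicate 19 were the 3 lowest of the unmarked libraries for Irs2, Fosl2, Errfi1 and Klf2. The 10 libraries are all from heart, but they differ in depth and in atrial content. HKII+/- replicates 19 and 22 were lowest for the atrial markers. The part of either difference in these correlations was not tested.

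**Figure D2:**
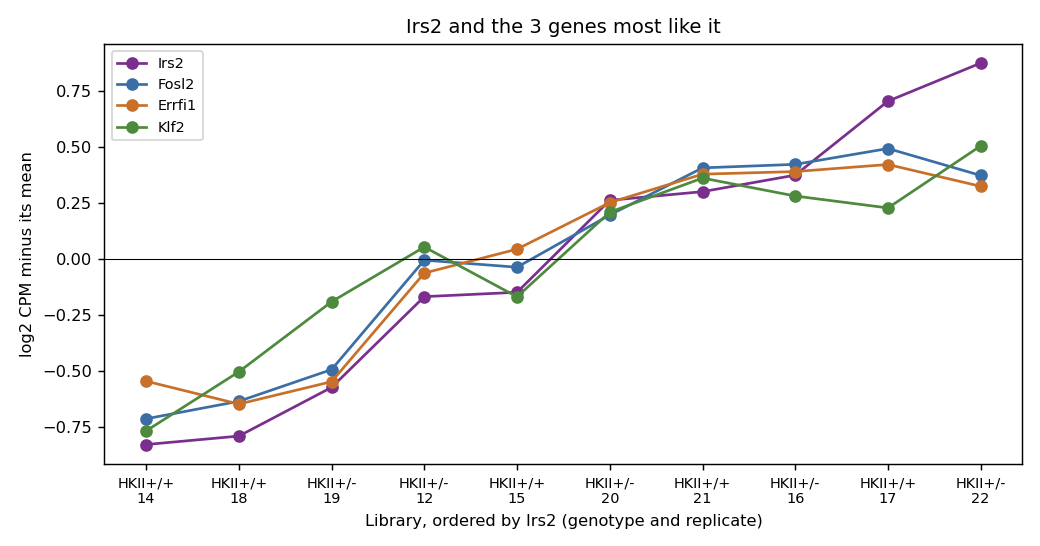
log2 CPM of Irs2, Fosl2, Errfi1 and Klf2, each minus its own mean over the 10 unmarked libraries (vertical axis), with libraries in the order of Irs2 (horizontal axis). The lowest library for Irs2 is HKII+/+ replicate 14 (11.6 CPM) and the highest HKII+/- replicate 22 (37.9 CPM), and both genotypes are spread along the order.

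The subunits of phosphoinositide 3-kinase did not pass the test between genotypes, and their levels were correlated across hearts. Pik3ca (ENSMUSG00000027665.13, chromosome 3, 32397671 to 32468486, plus strand) measured 69.3, 74.2, 70.0, 68.2 and 90.6 CPM in the unmarked HKII+/+ libraries. In the unmarked HKII+/- libraries it measured 79.5, 75.7, 67.1, 70.4 and 68.0 CPM. HKII+/+ replicate 21 stood above the rest, and the other 9 libraries lay between 67.1 and 79.5 CPM. For Pik3ca the log2 fold change was -0.04 (SE 0.08; interval at 95% from -0.23 to 0.14), and -0.09 (95% interval -0.68 to 0.50) with all 12 libraries.

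Pik3r1 (ENSMUSG00000041417.15, chromosome 13, 101680563 to 101768217, minus strand) measured 194.8, 197.4, 190.2, 164.7 and 250.7 CPM in the unmarked HKII+/+ libraries. It measured 200.1, 219.6, 156.5, 197 and 186 CPM in the unmarked HKII+/- libraries. HKII+/+ replicate 21 was again the highest and HKII+/- replicate 19 the lowest. Pik3r1 differed by -0.06 on the log2 scale (SE 0.11, 95% interval -0.30 to 0.19), and -0.04 (95% interval -0.30 to 0.23) with all 12 libraries.

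Of the 45 pairs among the 10 genes, Pik3ca and Pik3r1 alone passed a permutation test of their correlation over the 10 unmarked libraries (Pearson r = 0.86, p = 0.0005, adjusted p = 0.0225 over the 45 pairs). Spearman's rho was 0.96 (permutation p = 2e-05, adjusted p = 0.0009). Without the libraries farthest from the median of Pik3ca, HKII+/- replicate 12 and HKII+/+ replicate 21, r was 0.81, and within genotypes it was 0.86. Without the atrial-poor HKII+/- replicates 19 and 22 r was 0.87, but the permutation p over 8 libraries was 0.0054 and the adjusted p 0.21, so the pair no longer passed. The ratio of Pik3r1 to Pik3ca per kilobase was 2.41 ± 0.141 in HKII+/+ and 2.4 ± 0.206 in HKII+/- hearts (SD, n = 5 each, unmarked). Over all 45 pairs r ran from -0.51 to 0.86 with a median of 0.23. By the same rule on likeness as for Irs2, Pik3r1 was followed most closely by Ppp6r3 (r = 0.96, Spearman 0.77), Pcm1 (r = 0.96, Spearman 0.87) and Rmnd5a (r = 0.96, Spearman 0.94). By r these genes lay above Pik3ca (0.86), and by Spearman they lay below it (0.96). The place of Pik3ca among all genes compared is not given here. Its correlation with Pik3r1 is therefore not read as particular to the subunits. For Irs1 the genes were Scube2 (r = 0.94, Spearman 0.82), D230025D16Rik (r = 0.93, Spearman 0.70) and Mars2 (r = 0.92, Spearman 0.61). The ranks thus followed Irs1 less closely than r does. These values describe the 10 unmarked libraries and are given with no p.

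Akt1 and Akt2 differed between the genotypes by less than the spread between hearts. Akt1 (ENSMUSG00000001729.14, chromosome 12, 112653821 to 112674884, minus strand) measured 239.3, 268.4, 252, 232.2 and 254.5 CPM in the unmarked HKII+/+ libraries. In the unmarked HKII+/- libraries it measured 217.3, 260.5, 248.2, 229.5 and 274.6 CPM. The HKII+/- hearts held both the lowest and the highest value. Akt1 differed by -0.02 on the log2 scale (SE 0.07, 95% interval -0.17 to 0.13), or 89% to 109.6% of the wild type level.

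Akt2 (ENSMUSG00000004056.15, chromosome 7, 27591552 to 27640826, plus strand) measured 211.1, 212.6, 205.5, 192.6 and 178.9 CPM in the unmarked HKII+/+ libraries. It measured 200.6, 190.9, 194.4, 193.5 and 203.7 CPM in the unmarked HKII+/- libraries, all inside the HKII+/+ range. Akt2 also differed by -0.02 on the log2 scale (SE 0.05, 95% interval -0.14 to 0.09). In the fit of 12 libraries the values were -0.06 (95% interval -0.54 to 0.42) for Akt1 and 0.03 (95% interval -0.23 to 0.29) for Akt2.

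Per kilobase of exon, the ratio of Akt1 to Akt2 was 2.18 ± 0.187 in HKII+/+ and 2.18 ± 0.204 in HKII+/- hearts (SD, n = 5 each, unmarked). It ran from 1.97 to 2.48 in HKII+/+ and from 1.89 to 2.37 in HKII+/- hearts, so the genotypes overlapped.

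Mtor and Rptor, the kinase and the defining scaffold of mTOR complex 1, did not pass the test. Mtor (ENSMUSG00000028991.15, chromosome 4, 148448611 to 148557683, plus strand) measured 121, 127.3, 111.2, 107.7 and 131.8 CPM in the unmarked HKII+/+ libraries. It measured 104.8, 111.2, 122.7, 107.3 and 133.3 CPM in the unmarked HKII+/- libraries. On the log2 scale Mtor differed by -0.05 (SE 0.08, 95% interval -0.22 to 0.12), and -0.12 (SE 0.11, 95% interval -0.36 to 0.13) with all 12 libraries, the lowest of the 10 genes in that fit.

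Rptor (ENSMUSG00000025583.15, chromosome 11, 119602905 to 119899576, plus strand) averaged 70.0 ± 4.92 CPM (SD, n = 5) in the unmarked HKII+/+ libraries, and 70.0 ± 4.83 CPM (SD, n = 5) in the unmarked HKII+/- ones. Its values ran from 65.0 to 75.3 CPM and from 65.7 to 77.9 CPM. On the log2 scale Rptor differed by 0.001 (SE 0.06, 95% interval -0.13 to 0.13). The 12 libraries gave -0.03 (95% interval -0.51 to 0.46).

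Foxo1 was the steadiest of the 10 transcripts. Foxo1 (ENSMUSG00000044167.6, chromosome 3, 52268336 to 52353221, plus strand) measured 37.7, 36.9, 40.6, 37.02 and 38.6 CPM in the unmarked HKII+/+ libraries. In the unmarked HKII+/- libraries it measured 38.9, 36.5, 37.9, 39.1 and 39.6 CPM. The lowest and the highest of these 10 hearts differed by a ratio of 1.11. Its coefficient of variation of 3.4% was close to the 3.09% that counting error alone would give, and 98.3% of genes tested had a higher one. The coefficient of variation also depends on a gene's level. Between genotypes Foxo1 differed by 0.01 on the log2 scale (SE 0.04, 95% interval -0.08 to 0.11), so the HKII+/- level was between 94.4% and 107.7% of the wild type level, the narrowest interval of the 10. With all 12 libraries the interval was -0.47 to 0.51. Of the exon bases of Foxo1, 7.78% lie opposite an annotated gene on the other strand, so the limit given for Irs1 applies here to a smaller part of the gene.

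**Figure D3:**
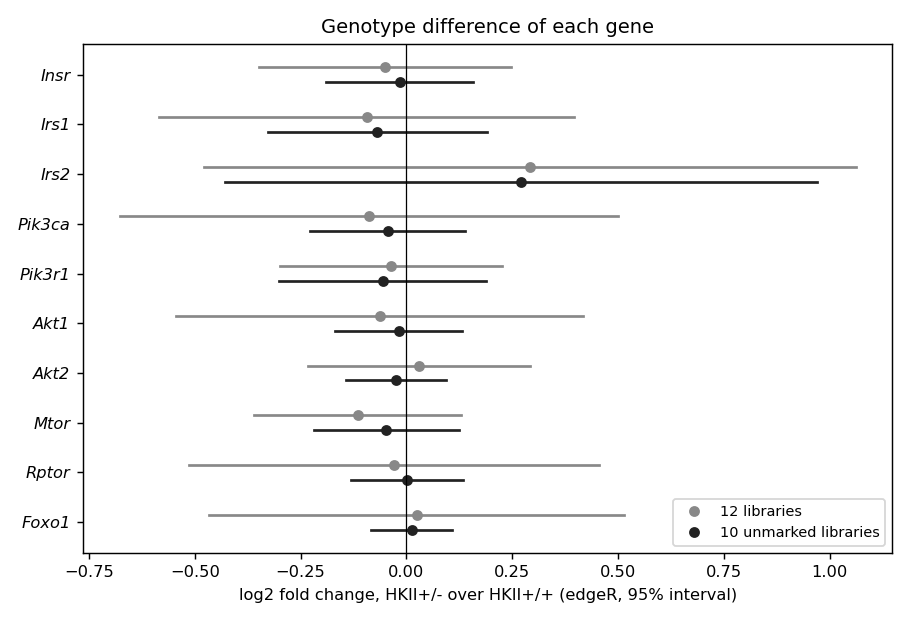
log2 fold change of each gene, HKII+/- over HKII+/+, from edgeR (points) with its 95% interval (lines), for all 12 libraries (grey) and the 10 unmarked libraries (black). All intervals include 0, and among the black ones that of Irs2 (-0.43 to 0.97) is the widest and that of Foxo1 (-0.08 to 0.11) the narrowest.

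The levels of the 10 transcripts were compared per kilobase of exon over the 10 unmarked libraries. Akt1 was highest at 60.4 ± 4.41 CPM per kb, followed by Akt2 at 27.8 ± 1.45, Insr at 20.8 ± 1.80 and Pik3r1 at 19.4 ± 2.61 (SD, n = 10). Mtor followed at 11.7 ± 1.06, Pik3ca at 8.07 ± 0.797, Irs1 at 6.12 ± 0.840, Rptor at 5.20 ± 0.341, Foxo1 at 4.42 ± 0.150 and Irs2 at 3.52 ± 1.42 CPM per kb. Neighbours whose ranges overlapped were Insr and Pik3r1, Irs1 and Rptor, and Foxo1 and Irs2. Beyond neighbours, Irs2 (1.84 to 5.99) also overlapped Rptor (4.82 to 5.78) and Irs1 (4.59 to 6.92), and Foxo1 (4.22 to 4.68) overlapped Irs1. The order within these pairs does not stand beyond their spread. With the longest transcript in place of all exons, Rptor (10.6 CPM per kb) moved above Pik3ca (8.22) and Irs1 (6.12), and the other 7 genes kept their places. The receptor thus stood above both adaptors, and Akt1 stood at 2.18 ± 0.185 times Akt2 (SD, n = 10).

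**Figure D4:**
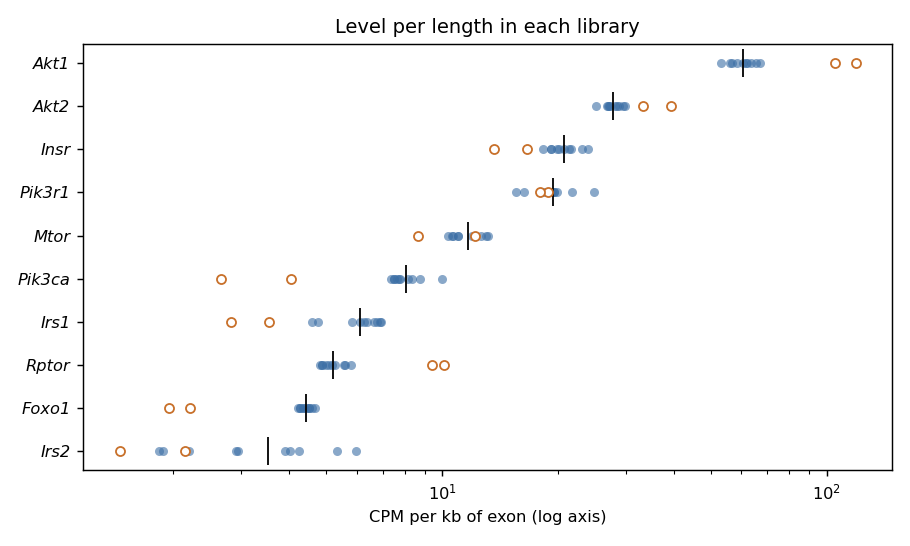
CPM per kilobase of exon (log axis) of each gene in the 10 unmarked libraries (filled points, with their mean as a bar) and the 2 marked libraries (open circles). Akt1 (mean 60.4 CPM per kb) lies above every other gene and Irs2 (1.84 to 5.99 CPM per kb, unmarked) has the widest spread.

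The 2 marked libraries stood apart from the rest for most of the 10 genes. Akt1 measured 429.5 CPM in HKII+/- replicate 11 and 487.5 CPM in HKII+/+ replicate 13, against 217.3 to 274.6 CPM in the unmarked libraries. Rptor measured 126.5 and 136.4 CPM, against 65.0 to 77.9 CPM. Pik3ca, by contrast, measured 24.1 and 36.7 CPM, Irs1 25.8 and 32.3 CPM, and Foxo1 19.1 and 16.9 CPM, each below every unmarked library.

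In each marked library 8 of the 10 genes lay outside the range of the unmarked libraries, while 84.9% (HKII+/- replicate 11) and 79.5% (HKII+/+ replicate 13) of all 14107 genes tested did. Akt1 and Rptor lay above and Insr, Irs1, Pik3ca and Foxo1 below in both libraries under TMM, median-ratio and total-count scaling. Akt2 lay above under TMM and median-ratio scaling, but inside the range (replicate 11) or below it (replicate 13) under total counts. The ratio of Pik3r1 to Pik3ca, which needs no scaling, was 7.11 in HKII+/- replicate 11 and 4.43 in HKII+/+ replicate 13, against 2.10 to 2.62 in the unmarked libraries. The ratio of Akt1 to Akt2 was 2.66 and 3.57, against 1.89 to 2.48.

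The deviation of the marked libraries moved with the GC content of the transcripts. Among the 10 genes Pik3ca had the lowest GC content (41.2%) and Akt1 the highest (59.7%), and Rptor was at 56.5%. Over 13445 genes the log2 ratio of the marked to the unmarked libraries had a Spearman correlation with GC of 0.62 (replicate 11) and 0.64 (replicate 13), across genes that share a library and are not independent replicates. Over the 10 genes alone that correlation was 0.58 (replicate 11) and 0.42 (replicate 13). Genes under 40% GC had a median log2 ratio of -1.85 and -1.50, and genes above 55% had 0.93 and 0.69. Irs2, at 56.6% GC, had log2 ratios of -0.69 and -1.23, below the median of its GC class. Foxo1, at 48.5% GC, was at -0.98 and -1.15, below a class median of -0.44 and -0.36. Irs1, at 50.3% GC, was at -1.10 and -0.78, below a class median of 0.22 and 0.16. Mtor, Akt2 and Pik3ca also lay below their class medians in both libraries. Insr, Akt1 and Rptor lay below theirs in replicate 11 and above in replicate 13. Pik3r1, at 44.9% GC, was at -0.04 and -0.12, above a class median of -1.17 and -0.95. In replicate 11 markers of other tissues were also high: the 4 adipocyte markers summed to 623.7 CPM, against 0.684 to 94.6 CPM in unmarked libraries, and the 4 airway markers to 240.8 CPM, against 0.215 to 1.64 CPM, with Sftpc at 0. In replicate 13 the same sums were 1.77 and 0.525 CPM. The 3 fibroblast markers summed to 3770 CPM in replicate 11 and 1256 CPM in replicate 13, both above the 549.1 to 835 CPM of the unmarked libraries. Smooth muscle markers summed to 763.5 CPM in replicate 11 and 274.4 CPM in replicate 13, against 172.5 to 429.9 CPM. The 4 atrial markers summed to 16146 CPM in replicate 11 and 5353 CPM in replicate 13, against 315.9 to 6635 CPM. Endothelial markers were at 589.8 CPM in replicate 11 and 750.2 CPM in replicate 13, against 741.5 to 922.6 CPM. The part of GC content or of other tissue in the values of the 10 genes was not tested, and in whole-heart RNA fewer cells of a type and less RNA per cell cannot be told apart.

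**Figure D5:**
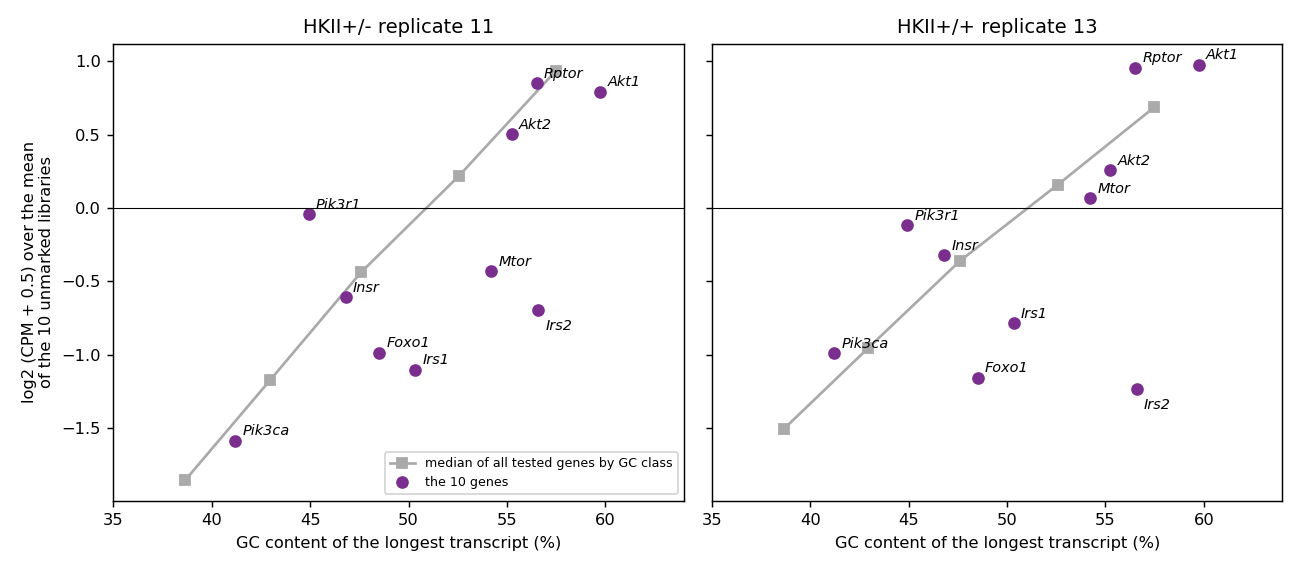
log2 ratio of (CPM + 0.5) in each marked library to the mean of the 10 unmarked ones (vertical axis) against GC content of the longest transcript (horizontal axis), for the 10 genes (purple) and as the median of all tested genes in 5 GC classes (grey squares, at the median GC of the class). Akt1, Rptor and Akt2 lie above 0 in both libraries, and Irs2, Foxo1, Irs1, Mtor and Akt2 lie below the grey line in both.

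The wider pathway was read from lists that held 132 further genes, of which 126 were tested. With all 12 libraries 0 of 126 were called, and 0 had an unadjusted p below 0.05 in edgeR, beside 0.262% of all genes. On the same 12 libraries the number at unadjusted p below 0.05 was 0 by DESeq2, 5 by limma voom with quality weights and 2 in edgeR with an atrial covariate. Without the marked libraries 0 of 126 were called, and 4 were at unadjusted p below 0.05, 1 higher (1.51% of all genes were) and 3 lower (1.29%). That count of 4 moved when 1 library was left out: it was 0 without HKII+/- replicate 12 and also 0 without HKII+/+ replicate 15, and it was 1 without HKII+/- replicate 20. It was 2 when the library left out was number 17 or 21 of HKII+/+, or number 22 of HKII+/-. It was 7 without HKII+/+ replicate 18, and 11 without HKII+/- replicates 19 and 22 together. The share of all genes at that threshold in these other fits is not given here. The moves are therefore not read as particular to the pathway. The median log2 fold change of the 126 was -0.02 in the 10 libraries, beside -0.005 over all genes tested, and 86 of them were below 0. The share of all genes below 0 is not given here, and genes of a list share their libraries. Counts above and below 0, here and in the lists that follow, are descriptions only.

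Lists of the upstream steps showed no called gene in either set of libraries. Insulin genes Ins1 and Ins2 did not pass the filter on low counts. The list of phosphoinositide 3-kinase subunits included Pik3ca and Pik3r1, and also Pik3ip1, an inhibitor of the kinase. In it 10 of 11 log2 fold changes were below 0 (median -0.05). Pik3cb, the beta catalytic subunit, was at -0.01 and Pik3r2, another regulatory subunit, at -0.03. Of the opposing phosphatases 5 were above 0 and 5 below. Pdpk1, the kinase that activates Akt, was at 0.02 (95% interval -0.22 to 0.25). The smallest p among the adaptors was that of Grb2, an adaptor to the Ras branch, at 0.06 (95% interval -0.03 to 0.15). In the list of kinase subunits it was that of the inhibitor Pik3ip1, at -0.17 (95% interval -0.35 to 0.02).

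Around mTOR, the inhibitory complex of Tsc1 and Tsc2 measured 0.01 (95% interval -0.10 to 0.13) and 0.003 (95% interval -0.13 to 0.13), and its target Rheb 0.04 (95% interval -0.09 to 0.16), all as log2 fold changes in the 10 libraries. Of the 12 genes of the mTOR complexes, Mtor and Rptor included, 5 were above 0 and 7 below. Rictor, the scaffold of mTOR complex 2, was at -0.01 (95% interval -0.26 to 0.25), and Mlst8, a subunit of both complexes, at -0.03 (95% interval -0.19 to 0.13). The substrates Eif4ebp1, a translation repressor, and Rps6kb1, S6 kinase 1, were both at -0.09 (95% intervals -0.26 to 0.08 and -0.21 to 0.03). Among the 28 genes that bring amino acid and stress signals to mTOR complex 1, 20 were below 0, and Rragb, a Rag GTPase, had the smallest p (log2 fold change -0.28, edgeR unadjusted p = 0.0343, adjusted p = 0.9999). Ddit4, a stress-induced inhibitor of mTOR complex 1, ran from 24.2 to 138.1 CPM over the unmarked libraries and differed by 0.13 on the log2 scale (95% interval -0.91 to 1.17).

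Of the FoxO factors, Foxo4 held 67.5% ± 2.15 and Foxo3 19.9% ± 2.11 of the sum of Foxo1, Foxo3 and Foxo4 per kilobase in HKII+/+ hearts, and Foxo1 12.6% ± 0.440 (SD, n = 5, unmarked). In HKII+/- hearts the shares were 67.5% ± 0.960, 19.4% ± 1.02 and 13.04% ± 0.633. The log2 fold changes of Foxo3 and Foxo4 were -0.07 (95% interval -0.24 to 0.10) and -0.03 (95% interval -0.12 to 0.06).

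In the list of FoxO target genes 18 of 22 log2 fold changes were below 0 in the 10 libraries (median -0.11, beside -0.005 over all genes) and 16 of 22 with all 12 (median -0.05). None was called. At unadjusted p below 0.05 in edgeR's quasi-likelihood test were Bcl6, Trim63 and Cited2, all with an adjusted p of 0.9999. Bcl6, a transcriptional repressor, was at 0.39 (95% interval 0.03 to 0.75), the muscle ubiquitin ligase Trim63 at -0.15 (95% interval -0.29 to -0.02) and Cited2, a transcriptional coregulator, at -0.26 (95% interval -0.52 to -0.001). None of the 3 stayed below an unadjusted p of 0.05 without HKII+/- replicate 12, nor without HKII+/+ replicate 15. With all 12 libraries Trim63 was at 0.04. Bcl6 and Cited2 were chosen after their values were seen. Pdk4, which restrains glucose oxidation and is a FoxO target, ran from 496 to 1123 CPM over the unmarked libraries and differed between genotypes by -0.09 on the log2 scale (95% interval -0.57 to 0.40). Its lowest library, HKII+/- replicate 12 (496 CPM), and its highest, HKII+/+ replicate 21 (1123 CPM), were not the extremes of Irs2.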

How the data were processed

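RNA from 12 hearts was measured by poly(A) RNA-seq with single-end reads of 100 nucleotides, per the labels' protocols. The submitters' processing notes name STAR 2.4.0, featureCounts 1.4.4 and the builds mm10 and GRCm38. The deposited values are raw counts per gene symbol, while the sources used here name neither the strand setting nor the annotation release. Libraries of a genotype differed by a chi-square of at least 7.03 per degree of freedom, so none was a repeat deposit of another of its genotype. Pairs across the genotypes were not compared. No label says which animal gave each library, so p-values measure the spread between these samples.

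Counts of all genes were fitted with edgeR 4.0.16 (TMM factors, filterByExpr with minimum count 10, quasi-likelihood test, Benjamini-Hochberg adjustment at 0.05), after tests on simulated data. Standard errors are the log2 fold change divided by the root of F. CPM carry the TMM factors of the 12-library fit. Lengths, GC content and coordinates came from GENCODE vM21 (GRCm38), promoter windows from RefSeq (GRCm38.p6). Alternatives were RLE factors, no filter, DESeq2 1.42.0, limma 3.58.1 voom with quality weights, an atrial covariate and left-out libraries. Named genes followed a written rule: the 10 genes, their listed partners, Hk2, called list genes, the smallest p in each list (unadjusted p, 10 libraries) and the 3 genes most like each of the 3 most variable members. Results for some partners are not reported here. The genes and lists were chosen with earlier results of these data known.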

Additional observations from a re-analysis of the deposited data

Results flagged for a closer look

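Within each genotype a library far from the others was looked for in 76 groups of values, and 20 values lay apart. In independent groups chance alone gives about 1 such value in 20 groups. These groups share libraries and genes, so that rate does not apply to their count. Of the 20 values, 19 came from the 2 libraries noted as potential outliers in the labels, replicate 11 (HKII+/-) and replicate 13 (HKII+/+).

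In HKII+/- replicate 11 the distant levels were Insr at 187.4 CPM, Akt1 at 429.5 CPM, Akt2 at 281.1 CPM, Pik3ca at 24.12 CPM, Rptor at 126.5 CPM, Foxo1 at 19.1 CPM and Hk2 at 568.2 CPM. In HKII+/+ replicate 13 they were Akt1 at 487.5 CPM, Rptor at 136.4 CPM and Foxo1 at 16.92 CPM. Insr, Pik3ca and Foxo1 were low and the other genes high against the rest of the genotype.

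Shares and ratios per kilobase stood apart as well. In HKII+/- replicate 11, of the sum of Foxo1, Foxo3 and Foxo4, Foxo1 made up 2.214%, Foxo3 37.33% and Foxo4 60.45%. In HKII+/+ replicate 13 Foxo1 made up 2.511% of that sum, and the ratio of Akt1 to Akt2 was 3.572. The ratio of Pik3r1 to Pik3ca was 7.108 in HKII+/- replicate 11 and 4.434 in HKII+/+ replicate 13, and the ratio of Rptor to Mtor was 1.086 and 0.8303.

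Among the unmarked libraries 1 value lay apart, Pik3ca at 90.62 CPM in HKII+/+ replicate 21.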

How the results depend on the processing

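No paired analysis was possible because no replicate number is shared by both genotypes. No member and no other pathway gene was called under any alternative run, in either set of libraries. In simulated data the edgeR fit of 12 libraries called 1% of 1.5-fold and 21% of 2-fold changes. With 10 libraries it called 66% and 86%. The 0 calls with 12 libraries thus say little about changes of 1.5-fold or 2-fold. The simulated data held 100 changed genes at each fold, while the fit of the 10 real libraries called 1 gene. The adjustment is stricter where fewer genes change, so the simulated shares can overstate what the real fits would call. The signs of small log2 fold changes did turn, and the cause was not tested. RLE factors and DESeq2 turned none of them. With 10 libraries, 95% intervals of the 10 genes allow differences from 94.4% to 107.7% of wild type for Foxo1 and from 74.3% to 195.9% for Irs2, and the lowest Irs2 library held 216 counts.

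With all 12 libraries, values that changed sign under voom quality weights were Insr at 0.012, Akt2 at -0.062, Pik3ca at 0.007, Pik3r1 at 0.021, Foxo1 at -0.003, Pik3r2 at -0.066, Pdpk1 at 0.08, Rheb at 0.056, Rictor at 0.055, Foxo3 at -0.075, Foxo4 at -0.019, Pdk4 at -0.012 and Trim63 at -0.15. Without the marked libraries they were Akt2 at -0.024, Rptor at 0.001, Pik3r2 at -0.032, Pdpk1 at 0.016, Tsc1 at 0.013, Tsc2 at 0.003, Rheb at 0.036, Foxo3 at -0.071, Foxo4 at -0.033, Pdk4 at -0.087 and Trim63 at -0.152. With an atrial covariate they were Foxo1 at -0.03, Pdk4 at -0.052 and Grb2 at -0.044, and with no filter Pik3r2 at -0.005. With the 10 unmarked libraries, voom quality weights gave Insr at 0.015, Pik3ca at 0.011, Pik3r1 at 0.024, Rptor at -0.041, Foxo1 at -0.004, Igf1r at 0.002, Tsc1 at -0.013, Tsc2 at -0.033 and Rictor at 0.059. The atrial covariate gave Rptor at -0.033, Tsc1 at -0.0004, Tsc2 at -0.059, Rictor at 0.081 and Ddit4 at -0.148. Leaving out HKII+/- replicates 19 and 22 as well gave Pik3ca at 0.017, Pik3r1 at 0.045, Rptor at -0.034, Tsc2 at -0.07, Rictor at 0.144 and Ddit4 at -0.094, and the number of correlated pairs among the 10 genes fell from 1 to 0.

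Leaving out 1 library at a time, log2 fold changes with a change of sign ran over these ranges with 12 libraries: Insr -0.089 to 0.035, Irs1 -0.191 to 0.042, Akt1 -0.235 to 0.167, Akt2 -0.069 to 0.09, Pik3ca -0.206 to 0.084, Pik3r1 -0.082 to 0.045, Rptor -0.213 to 0.199, Foxo1 -0.104 to 0.154 and Igf1r -0.146 to 0.045. Further ranges were Pik3cb -0.077 to 0.002, Pik3r2 -0.218 to 0.212, Pdpk1 -0.195 to 0.193, Tsc1 -0.088 to 0.033, Tsc2 -0.077 to 0.09, Rheb -0.049 to 0.035, Rictor -0.201 to 0.167, Eif4ebp1 -0.233 to 0.017, Rps6kb1 -0.297 to 0.081 and Foxo3 -0.563 to 0.779. Further ranges were Foxo4 -0.303 to 0.33, Pdk4 -0.11 to 0.172, Ddit4 -0.584 to 0.769, Grb2 -0.039 to 0.118, Akt1s1 -0.243 to 0.114 and Trim63 -0.384 to 0.289. With 10 libraries the ranges were Insr -0.062 to 0.042, Irs1 -0.152 to 0.011, Akt1 -0.06 to 0.021, Pik3ca -0.086 to 0.038, Pik3r1 -0.119 to 0.042, Rptor -0.04 to 0.029, Foxo1 -0.003 to 0.035, Pik3cb -0.041 to 0.018 and Pik3r2 -0.086 to 0.013. Further ranges were Pdpk1 -0.041 to 0.122, Tsc1 -0.01 to 0.042, Tsc2 -0.056 to 0.022, Rictor -0.085 to 0.062, Pdk4 -0.195 to 0.041 and Ddit4 -0.241 to 0.63.

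Hk2 passed the threshold with 12 libraries only under voom quality weights (-0.884) and without the marked libraries (-0.799). With 10 libraries, leaving out 1 at a time gave Hk2 values from -0.876 to -0.755, and 7 of the 10 omissions ended the call.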
